A study of Mus musculus with 50 samples.

Results

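The transcripts of 10 skeletal muscle genes were followed in 50 RNA-seq libraries of mouse thyroid, because the thyroid lies against the trachea and the strap muscles of the neck and a dissected gland can carry muscle with it. The genes were chosen by name, 10 of the 52636 genes in the count table. They are the fast myosin heavy chains Myh1 (ENSMUSG00000056328), Myh2 (ENSMUSG00000033196) and Myh4 (ENSMUSG00000057003), the slow myosin heavy chain Myh7 (ENSMUSG00000053093), the skeletal actin Acta1 (ENSMUSG00000031972), the creatine kinase Ckm (ENSMUSG00000030399), the slow and fast troponins T Tnnt1 (ENSMUSG00000064179) and Tnnt3 (ENSMUSG00000061723), the calcium pump Atp2a1 (ENSMUSG00000030730) and parvalbumin, Pvalb (ENSMUSG00000005716). All 10 were detected in at least 1 library, and 9 of them in all 50; Myh7 had no read in 10 libraries. Levels are CPM, the share of a library's counts that fell on a gene, scaled to 1 M counts, unless the length-scaled FPKM is named.

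The mice were C57BL/6 males, 10 to 12 weeks old by the design text and 10 to 14 weeks old by the treatment protocol, and each received antibody once, by intraperitoneal injection. RW mice received 40 mg/kg of an isotype control against ragweed. The aJ1aJ2 mice received antibodies that block the Notch ligands Jag1 and Jag2, 20 mg/kg of each. The aN1aN2 mice received blocking antibodies to the receptors Notch1 (5 mg/kg) and Notch2 (10 mg/kg), and the aN1aN2aN3 mice received these together with 20 mg/kg against Notch3. Thyroids were collected at 15 hours and 5 days after RW, aJ1aJ2 or aN1aN2, and at 7 days in a first set (RW and aJ1aJ2) and a second set (aJ1aJ2 and aN1aN2aN3), with 5 libraries in each of the 10 groups. Every mouse carried antibody, so no untreated gland was among them, and injected antibody reaches muscle as well as thyroid. Injections of thyroid hormone are mentioned for the study, but no label ties them to these mice. Nothing in the labels says whether the 5 libraries of a group are 5 separate mice, so p-values measure the spread between libraries.

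A skeletal muscle fibre contracts when calcium released from the sarcoplasmic reticulum binds troponin on the thin filament of actin and lets myosin heads pull on it. Fibres differ in the myosin heavy chain they use: Myh7 marks slow oxidative fibres, Myh2 the type IIa, Myh1 the type IIx and Myh4 the type IIb fast fibres, in order of rising speed. Fast fibres also carry their own troponin T (Tnnt3), calcium pump (Atp2a1, SERCA1) and a soluble calcium buffer (Pvalb), whereas Acta1 and Ckm are abundant in every fibre type. In adult mice most limb and neck muscles are made largely of fast fibres. Thyroid follicular cells express none of these genes as part of hormone synthesis; their marker is thyroglobulin (Tg), the precursor of thyroid hormone.

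Muscle genes are switched on together by factors that bind short DNA motifs: MyoD-family proteins at E-boxes (CANNTG), serum response factor at CArG boxes and MEF2 proteins at MEF2 sites. RefSeq start-site windows were found for 9 of the 10 genes (Tnnt3 had none), and the 250 bases before the start of 4 genes are shown, since these stand for the shared fibre machinery (Acta1, Ckm), the fast fibre (Myh4) and the slow fibre (Myh7). They are written 5′ to 3′ on the gene's strand, from the build GRCm38.p6, with matches to the 3 motifs on either strand in capitals. The windows are chr8:123894776-123895025 (minus strand) for Acta1, chr7:19410844-19411093 (plus strand) for Ckm, chr11:67237562-67237811 (plus strand) for Myh4 and chr14:54994627-54994876 (minus strand) for the outer start of Myh7.
Acta1: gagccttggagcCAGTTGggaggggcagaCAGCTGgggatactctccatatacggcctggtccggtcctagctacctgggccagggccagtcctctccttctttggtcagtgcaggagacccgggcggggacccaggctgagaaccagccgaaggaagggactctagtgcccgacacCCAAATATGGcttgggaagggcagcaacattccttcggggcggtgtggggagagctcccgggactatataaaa
Ckm: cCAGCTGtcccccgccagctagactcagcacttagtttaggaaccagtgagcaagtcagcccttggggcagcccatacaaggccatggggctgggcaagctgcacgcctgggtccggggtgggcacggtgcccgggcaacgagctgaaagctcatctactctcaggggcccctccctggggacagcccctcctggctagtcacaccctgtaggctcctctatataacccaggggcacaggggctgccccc
Myh4: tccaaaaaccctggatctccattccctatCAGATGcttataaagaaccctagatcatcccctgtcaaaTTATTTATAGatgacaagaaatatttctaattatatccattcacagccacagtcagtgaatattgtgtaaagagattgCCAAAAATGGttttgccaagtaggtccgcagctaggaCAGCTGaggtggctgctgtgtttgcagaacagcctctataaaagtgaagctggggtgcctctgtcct
Myh7: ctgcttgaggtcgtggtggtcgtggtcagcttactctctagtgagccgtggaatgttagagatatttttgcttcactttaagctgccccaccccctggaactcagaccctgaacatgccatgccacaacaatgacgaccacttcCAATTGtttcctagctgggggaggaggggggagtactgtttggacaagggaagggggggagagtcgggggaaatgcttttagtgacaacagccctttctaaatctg
An E-box was found in 66.2% of all 32851 RefSeq windows of this length, and in 7 of the 9 muscle genes with a window. A CArG box was found in 1.47% of all windows, and among the muscle genes in Acta1, starting 73 bases before the start site, and in Myh4, 104 bases before it. A MEF2 site was found in 2.92% of all windows and in Myh4 (182 bases before the start), Myh1 (211 bases) and Pvalb (180 bases). In Myh4 all 3 motifs stood within 1 window, none overlapping another. For Acta1, Myh1 and Myh4, the sequence after the window did not match a transcript in the GENCODE M21 annotation. Distances for these genes therefore hold for the RefSeq start only. The motif matches are letters in a window and were not tested for binding.

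Library totals ran from 15.3 to 52.8 M counts, with a median of 28.3 M. The thyroid label was met in every library by Pax8 (4.27 to 685 CPM) and Nkx2-1 (2.52 to 399 CPM), but Tg, the most specific marker, ranged from 0.450% to 42.4% of all counts and was under 10% in 15 libraries. These 15 included all 10 libraries of the second 7-day set (1.15% to 6.50%). The library labelled RW replicate 3 at 5 days stood apart, with the lowest Tg share, Pax8 and Nkx2-1 of all 50, and the treatment comparisons and Tg relations at 5 days are therefore given with and without it. Replicates differed by far more than counting noise in all 100 pairs of libraries within groups, so all 50 were counted separately.

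The 10 muscle genes together took between 0.0357% and 13.3% of all counts, with a median of 0.969%. The lowest share was in aJ1aJ2 replicate 2 of the second 7-day set and the highest in RW replicate 3 at 5 days, the library with the least Tg. Bulk RNA does not tell more muscle fibres from more muscle RNA per fibre. Shares of 5% and more were found in 10 libraries, which came from 8 of the 10 groups. The exceptions were RW of the first 7-day set, where the highest share was 2.26%, and aN1aN2aN3, where it was 3.47%.

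The genes present in every fibre type were found in all libraries at widely different levels. Acta1, the actin of the skeletal thin filament, ranged from 102 to 29068 CPM (median 1931 CPM), a 286-fold span between the lowest and highest library. Ckm, which regenerates ATP from phosphocreatine during contraction, ranged from 54.7 to 13838 CPM with a median of 847 CPM. The 2 moved closely together: the ratio of Ckm to Acta1 in FPKM, which scales counts to gene length, stayed between 0.0706 and 0.167 in the 50 libraries.

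Among the fast genes, Myh4, the myosin of the fastest fibres, reached 30198 CPM and had a median of 1792 CPM. Atp2a1, which pumps calcium back into the reticulum, ranged from 49.2 to 31140.0 CPM (median 2381 CPM). Tnnt3, the fast troponin T that anchors the troponin complex to tropomyosin, ranged from 61.6 to 18946 CPM (median 1199 CPM). Pvalb, the calcium buffer that speeds relaxation, ranged from 36.1 to 10656 CPM (median 351 CPM). The other fast myosins were less abundant: Myh1 ranged from 2.23 to 6821 CPM (median 506 CPM) and Myh2 from 0.524 to 1523 CPM (median 111 CPM).

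The slow genes were at or near the floor of detection in most libraries. Myh7, the slow and cardiac myosin, was under 1 CPM in 35 of 50 libraries, and its median was 0.384 CPM. In the 10 libraries without a Myh7 read, the 3 counts that a count of 0 allows correspond to 0.0729 to 0.196 CPM, counting error only. Tnnt1, the slow troponin T, was under 1 CPM in 15 libraries and had a median of 1.56 CPM. Yet both had rare high values: Myh7 was 40.4 CPM in aJ1aJ2 replicate 3 and 29.7 CPM in aN1aN2 replicate 4 at 5 days, and Tnnt1 was 60.3 CPM in aN1aN2 replicate 5 at 15 hours and 40.4 CPM in aJ1aJ2 replicate 4 of the second 7-day set.

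**Figure D1:**
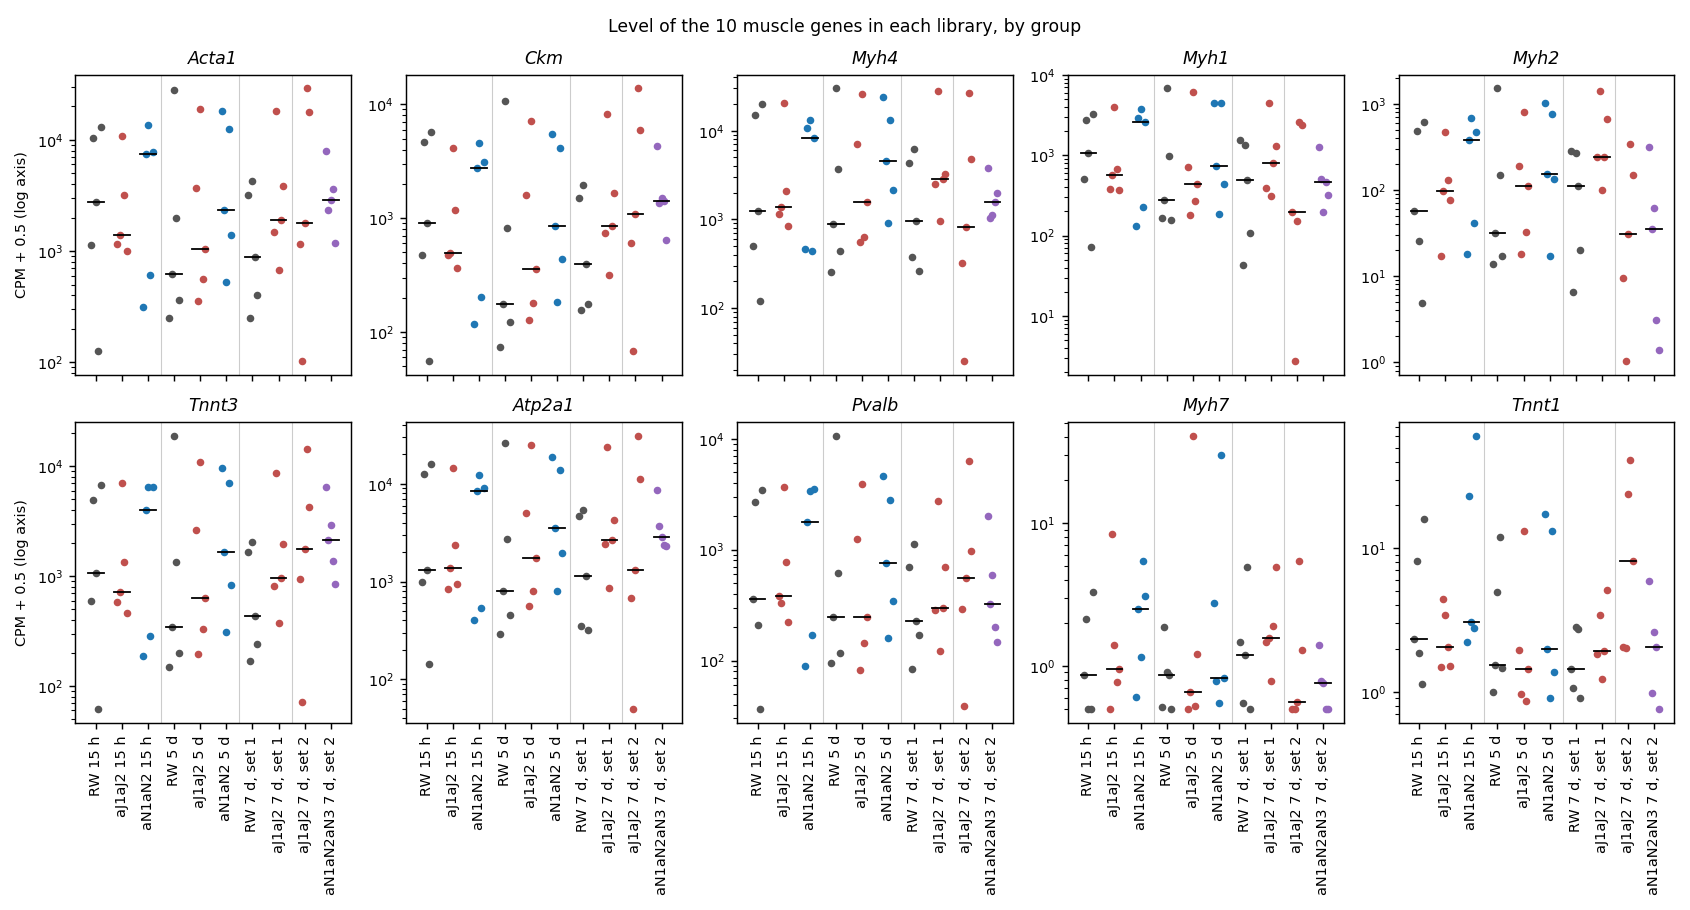
Level of each of the 10 muscle genes in CPM (log axis) in each library, 1 point per library, by group of 5. The fast and all-fibre genes spread over a 10-fold range or more inside most groups, from 102 to 29068 CPM for Acta1 over all libraries, whereas Myh7 and Tnnt1 lie mostly near 1 CPM.

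On the length-scaled FPKM scale the genes kept a steady order within libraries. Acta1 was the highest of the 10 in all 50 libraries, and Atp2a1 came next, with Acta1 at a median of 4.83 times its FPKM. Atp2a1 stood above Myh4 in 46 of 50 libraries and Myh4 above Tnnt3 in 38. Tnnt3 and Ckm could not be ordered, since each was the higher one in 25 libraries and their median FPKM ratio was 0.995. Ckm was above Pvalb in 49 libraries, but Pvalb was above Myh1 in 31 only, so these neighbours lay within the spread between libraries. The lower end was clear: Myh1 exceeded Myh2 in all 50 libraries, by a median of 6.07 times in FPKM, Myh2 exceeded Tnnt1 in 47 and Tnnt1 exceeded Myh7 in 47. Count divided by FPKM fell into 2 scalings, which the labels do not name, so FPKM levels are compared across libraries within a scaling only. For Acta1 the median was 651 FPKM over 30 libraries of the first scaling and 568 FPKM over 20 of the second.

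The 4 myosin heavy chains describe the type of the attached muscle as far as its fibres use them, because each of these fibre types uses its own. Of their summed FPKM within a library, Myh4 made up 49.2% to 90.8%, with a median of 75.9%. Myh1 made up 7.53% to 46.1%, Myh2 0.0329% to 11.3% and Myh7 at most 0.675%. The lowest Myh2 share rested on 17 counts. Among these 4, by FPKM, fast type IIb myosin was thus the largest share in every library, type IIx the second, and slow myosin a trace. Myosins of special muscles are outside these shares. Myh8, the perinatal myosin, had a median of 1.97 CPM but was 462 CPM in aN1aN2aN3 replicate 4, beside 459 CPM of Myh1. In aJ1aJ2 replicate 5 of the second 7-day set it was 1849 CPM, beside 2355 CPM of Myh1. In RW replicate 3 at 15 hours it was 927 CPM, beside 1053 CPM of Myh1. By counts, Myh1 exceeded Myh4 in 1 library, RW replicate 1 at 15 hours (47.9% against 46.8% of the counts on the 4 myosins). At 15 hours the RW libraries had Myh4 shares of 49.2%, 84.0%, 55.9%, 63.4% and 85.1%, so libraries of 1 group spanned nearly the whole range. The 2 of these with the most muscle RNA, replicates 2 and 5, had the highest Myh4 shares.

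Reads that fit several myosins limit these shares. Of the 50-base words in its transcripts, Myh1 shares 30.5% with other genes, Myh2 24.6%, Myh7 20.0% and Myh4 18.9%, with the other myosins as leading partners. The handling of such reads is not given in the sources used here. Exons of Myh1, Myh2, Myh7, Ckm and Atp2a1 also overlap a gene on the opposite strand in the GENCODE M21 annotation, and whether counting used strand is likewise not given, so the levels of these 5 genes are uncertain by that much.

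Troponin T gave the same picture as the myosins. Slow Tnnt1 made up 0.0335% to 3.06% of the summed FPKM of Tnnt1 and Tnnt3, so fast troponin T made up nearly all of the pair in every library. The highest Tnnt1 share was in aJ1aJ2 replicate 2 of the second 7-day set, the library with the lowest Acta1 of all 50 (102 CPM). Of the 10 further slow-fibre genes read, 3 were high in the libraries with the most Myh7, aJ1aJ2 replicate 3 and aN1aN2 replicate 4 at 5 days. Tnni1, slow troponin I, was 11.1 and 5.98 CPM in them, Myl2, a slow myosin light chain, 17.4 and 19.3 CPM, and Tnnc1, slow troponin C, 8.31 and 7.34 CPM. The medians over 50 libraries were 0.295 CPM for Tnni1, 1.45 CPM for Myl2 and 0.339 CPM for Tnnc1. The same 3 genes were about as high in aJ1aJ2 replicate 4 of the second 7-day set (6.15, 18.8 and 5.85 CPM), where Myh7 was only 4.90 CPM.

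The other slow-fibre genes did not single out these libraries. Myl3 was highest in aJ1aJ2 replicate 5 of the second 7-day set (486 CPM), Myoz2 in aN1aN2aN3 replicate 1 (113 CPM), Casq2 in aN1aN2 replicate 5 at 15 hours (44.2 CPM) and Myh7b in aJ1aJ2 replicate 1 of the first 7-day set (3.60 CPM). Mybpc1 was high in both (2299 and 1885 CPM) but reached 4277 CPM elsewhere. Tpm3 was 39.3 and 58.7 CPM in them, beside a median of 41.1 CPM, and Atp2a2 was 190.0 and 232 CPM, under its median of 296 CPM. Both libraries were also high in fast muscle RNA, with Acta1 at 18947 and 12540.3 CPM.

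Heart muscle uses Myh7, Myl2 and Tnnc1 too, so 5 cardiac muscle genes were read in the same 2 libraries. Actc1 was 40.3 and 25.04 CPM (median of all libraries 4.52 CPM), Tnnt2 1.97 and 1.92 CPM (0.269 CPM), Myh6 1.55 and 0.747 CPM (0.191 CPM), Tnni3 0.793 and 1.92 CPM (1.43 CPM) and Nppa 0.069 and 0 CPM (0.035 CPM). The first 3 were thus above their medians in both libraries, but not only there. In RW replicate 3 at 5 days, with Myh7 at 0.401 CPM, Actc1, Tnnt2 and Myh6 were 63.4, 1.83 and 0.917 CPM. In aJ1aJ2 replicate 3 at 15 hours, with Myh7 at 0.909 CPM, they were 21.1, 1.99 and 0.909 CPM. The part of heart muscle in the Myh7 values was not tested.

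**Figure D2:**
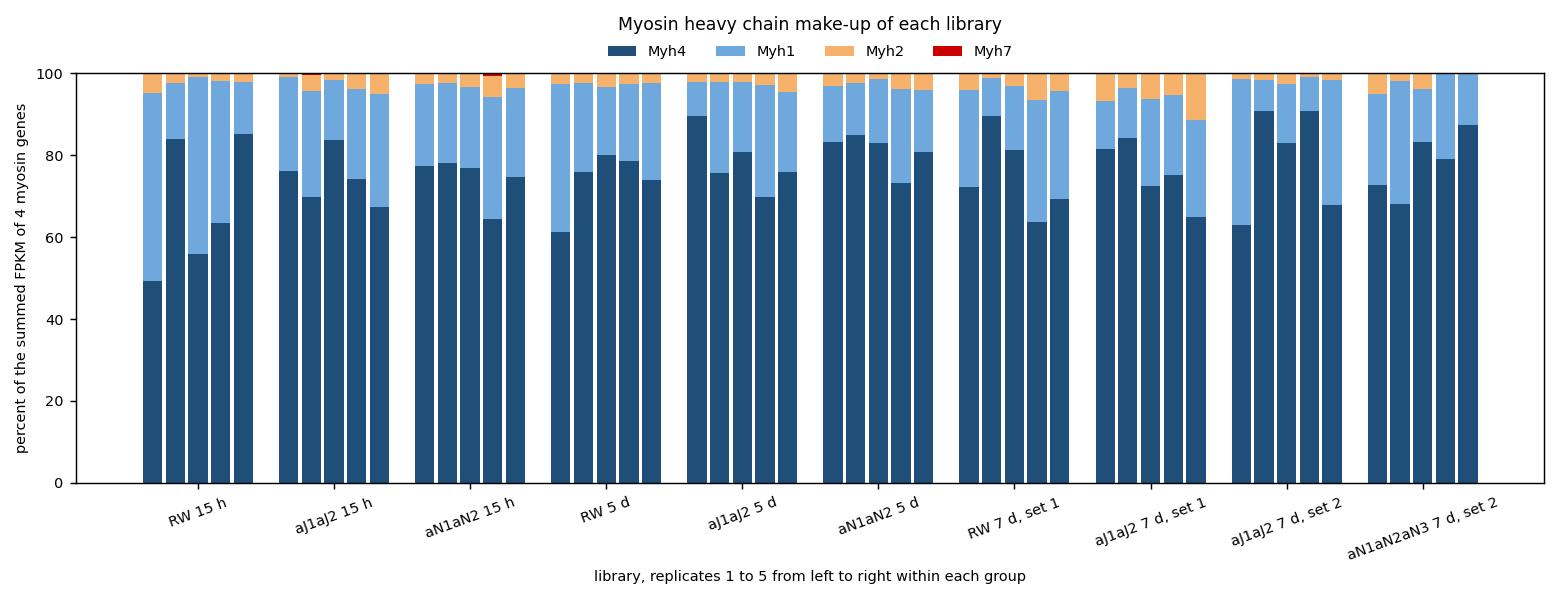
Share of Myh4, Myh1, Myh2 and Myh7 in their summed FPKM (percent) in each of the 50 libraries, 1 bar per library, by group. Myh4 is the largest share of FPKM in every bar (49.2% to 90.8%), Myh1 the next, and Myh7 is too small to see; by counts Myh1 exceeded Myh4 in RW replicate 1 at 15 hours.

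The fast and all-fibre genes rose and fell together from library to library. In 7 of the 10 groups the same library was the highest for all 8 of these genes, and in 5 groups the same library was the lowest for all 8. Over the 50 libraries the 28 pairs among them had Pearson correlations of log2 CPM between 0.77 and 0.99, with a median of 0.93; the closest pair was Acta1 and Ckm (0.99). The 17 pairs that include Myh7 or Tnnt1 had correlations of 0.49 to 0.73, with a median of 0.59. These values describe 50 libraries from several times and sets, and were not tested. The 10 groups, which differ in treatment, time and set, accounted for little of this variation on the log2 scale. Their share was 4.73% for Pvalb, 6.11% for Acta1, 6.64% for Atp2a1, 7.39% for Tnnt3, 7.56% for Ckm and 8.82% for Myh4. It was 10.3% for Myh1, 10.6% for Myh7, 21.2% for Myh2 and 24.3% for Tnnt1. Some variation falls between groups by chance alone, and these shares were not tested.

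Of 16296 genes compared over the 50 libraries, those most like the mean of the muscle genes were themselves mostly known from muscle. They were Rpl3l, a muscle form of a ribosomal protein (r = 0.99), Cacng6 (0.98), Tmem182 (0.98), Cap2 (0.98), Abcb4 (0.98), Txlnb (0.98), Mybpc1, a myosin-binding protein (0.98), Trdn, triadin of the calcium release unit (0.98), Cavin4 (0.98) and Cacna1s, the voltage sensor of the muscle fibre (0.98). Mybpc1 is often listed with slow fibres, but here it ran from 3.47 to 4277 CPM with the fast genes. The genes most unlike the muscle genes were March8 (−0.77), Arhgap29 (−0.76), Pogk (−0.76), Zc3h7a (−0.76) and Arhgap6 (−0.76). The 9 thyrocyte markers, Tg among them (−0.37), had correlations of −0.66 to −0.37 with the muscle mean.

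Treatments were set against each other in 6 comparisons, each with edgeR's quasi-likelihood test on the counts and Benjamini-Hochberg adjustment over all genes tested, at a threshold of 0.05. Log2 fold changes below are from that test. The muscle genes passed it in none: 0 of 10 were called in each of 5 comparisons and 0 of the 9 tested in the sixth. In no comparison did all 5 libraries of 1 group lie above all 5 of the other for any of the 10 genes. Standard errors were wide, from 1.06 to 1.54 on the log2 scale for Acta1.

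At 15 hours, Acta1 in RW replicates 1 to 5 was 1145, 10349, 2784, 127 and 13098 CPM. In aJ1aJ2 it was 1146, 1409, 10863, 3200.2 and 1001 CPM. RW replicates 2 and 5 and aJ1aJ2 replicate 3 were high, the other 7 libraries were at 3200.2 CPM or lower, and the groups overlapped almost fully. Myh4, the type IIb myosin, was 496, 15232, 1248, 118 and 20070.0 CPM in RW and 1152, 1395, 20434, 2102 and 836 CPM in aJ1aJ2. Tnnt1 was 1.84, 7.65, 1.36, 0.642 and 15.4 CPM in RW and 0.991, 3.96, 2.94, 1.56 and 1.01 CPM in aJ1aJ2. The slow gene again overlapped, with the 2 highest values in RW.

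The fold change of aJ1aJ2 over RW at 15 hours was −0.74 ± 1.18 on the log2 scale for Acta1 (SE, n = 5 against 5, edgeR adjusted p = 1.00), −0.63 ± 1.39 for Myh4 and −1.49 ± 1.09 for Tnnt1 (adjusted p = 0.981). Myh1, Myh2, Myh7, Ckm, Tnnt3, Atp2a1 and Pvalb lay between −0.94 (Ckm) and 0.87 (Myh7), each with an edgeR adjusted p of 1.00. The 10 genes had a median of −0.67, with 9 below 0 and 1 above, against −0.030 over the 18513 genes tested. Of all genes tested, 0.573% were called (0.346% higher and 0.227% lower), and of the muscle genes 0, also at an unadjusted p under 0.05 (6.59% of all genes) and with DESeq2 or limma with quality weights. Groups did not overlap for 1.31% of all genes and for none of these 10. Without RW replicate 5, the library with the most muscle RNA in that group, the median turned to 0.11, and without aJ1aJ2 replicate 3 it fell to −1.79.

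In aN1aN2 at 15 hours Acta1 was 316, 7461, 13581, 606 and 7729 CPM, against the RW values above. Myh4 was 459.6, 10686, 13256, 443 and 8220 CPM. Replicates 2, 3 and 5 were high in both genes and replicates 1 and 4 low, inside the range of RW. Tnnt1 was 1.71, 22.6, 2.58, 2.29 and 60.3 CPM, so 2 of the 5 exceeded every RW library and 3 lay among them. The 2 high ones, replicates 2 and 5, also had Acan, a cartilage proteoglycan, at 595 and 928 CPM and Myh13, the superfast myosin of eye and larynx muscles, at 237 and 179 CPM. No other library at 15 hours exceeded 86.3 CPM for Acan or 8.66 CPM for Myh13. The part of such tissue in the Tnnt1 values was not tested.

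Against RW, aN1aN2 gave log2 fold changes of 0.063 ± 1.18 for Acta1 (SE, edgeR adjusted p = 0.992), −0.25 ± 1.39 for Myh4 (adjusted p = 0.964) and 1.62 ± 1.08 for Tnnt1 (adjusted p = 0.531). The other 7 genes lay between −0.19 (Ckm) and 0.96 (Myh7), with edgeR adjusted p from 0.813 to 0.989. The median of the 10 genes was 0.30, with 7 above 0 and 3 below, against 0.0097 over all genes. None of the 10 was called, also at an unadjusted p under 0.05 and with DESeq2 or limma with quality weights, where 1.68% of all genes were called by edgeR (0.88% higher and 0.799% lower), 14.4% had an unadjusted p under 0.05 and 3.68% had groups that did not overlap. Without aN1aN2 replicate 3 or 5 the median was −0.18 or −0.012. The RW and aN1aN2 libraries at 15 hours also had different FPKM scalings. The labels do not say whether these mark separate processing, and treatment and scaling cannot be told apart there.

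At 5 days 1 RW library stood far above the other 4. Acta1 was 248, 628, 28063, 1974 and 365 CPM in RW replicates 1 to 5, so replicate 3 was over 10 times the next library. In aJ1aJ2 it was 3677, 353, 18947, 563 and 1052 CPM, and in aN1aN2 18075, 2338, 530.0, 12540.3 and 1394 CPM. All 3 groups thus had 1 or 2 libraries at 12540.3 CPM or more, and those libraries held 0.450%, 2.39%, 8.80% and 13.9% Tg, the 4 lowest Tg shares at this time.

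Myh4 at 5 days followed Acta1, at 258, 880.5, 30198, 3700.3 and 444 CPM in RW. It was 7020.0, 552, 26305, 639 and 1551 CPM in aJ1aJ2 and 24064, 4539.5, 903, 13140.1 and 2151 CPM in aN1aN2. The groups overlapped, with the highest single value in RW. Slow Tnnt1 was 0.492, 1.05, 4.47, 11.5 and 0.972 CPM in RW, 1.47, 0.458, 12.8, 0.358 and 0.950 CPM in aJ1aJ2, and 16.8, 1.50, 0.407, 12.8 and 0.876 CPM in aN1aN2. In RW the highest Tnnt1 was not in replicate 3, the library with the most Acta1, but in replicate 4, which had Acan at 231 CPM; the part of such tissue was not tested.

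The log2 fold changes of aJ1aJ2 over RW at 5 days were −1.05 ± 1.54 for Acta1 (SE, n = 5 against 5, edgeR adjusted p = 0.800), −0.66 ± 1.48 for Myh4 (adjusted p = 0.869) and −0.46 ± 1.23 for Tnnt1 (adjusted p = 0.891). The other 7 lay between −1.78 (Pvalb) and 4.04 (Myh7), with edgeR adjusted p from 0.490 to 0.887. The 10 genes had a median of −0.91, with 9 below 0 and 1 above, against −0.059 over all 18434 genes. The high value of Myh7 rested on aJ1aJ2 replicate 3. None of them was called by edgeR, DESeq2 or limma with quality weights, or at an unadjusted p under 0.05, where 0.179% of all genes were called by edgeR (0.0759% higher and 0.103% lower), 11.8% had an unadjusted p under 0.05 and 4.62% had groups that did not overlap. Without RW replicate 3 the median turned to 2.39, with 9 genes above 0 and 1 below (Tnnt1, −0.21), against 0.060 over all genes. EdgeR then called none of the 10, beside 1.05% of all genes. None of the 10 had an unadjusted p under 0.05, beside 16.1% of all genes.

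For aN1aN2 against RW at 5 days the values were −0.43 ± 1.53 for Acta1 (SE, edgeR adjusted p = 0.953), −0.21 ± 1.48 for Myh4 (adjusted p = 0.978) and 0.65 ± 1.23 for Tnnt1 (adjusted p = 0.919). The other 7 lay between −1.02 (Pvalb) and 3.57 (Myh7), with edgeR adjusted p from 0.665 to 0.975. The median was −0.30, with 8 genes below 0 and 2 above, against −0.073 over all genes. None of the 10 was called by the 3 tools or at an unadjusted p under 0.05, beside 0% of all genes called, 10% at an unadjusted p under 0.05 and 1.56% with groups that did not overlap. Without RW replicate 3 the median turned to 2.88 and all 10 genes were above 0, against a median of 0.043 over all genes. Then edgeR still called 0 of the 10 (lowest adjusted p 0.284), beside 0.0482% of all genes. However, Acta1, Myh2, Tnnt3 and Atp2a1 had an unadjusted edgeR p under 0.05, from 0.0401 to 0.0485, beside 16.5% of all genes. Without aN1aN2 replicate 3 the median was 0.0037. The high value of Myh7 rested on aN1aN2 replicate 4. The 2 comparisons at 5 days share the RW libraries, as do the 2 at 15 hours.

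In the first 7-day set Acta1 was 3221, 249, 4273, 885 and 400.2 CPM in RW and 1488, 18084, 672, 1887 and 3840.1 CPM in aJ1aJ2. Myh4 was 4314, 375, 6257, 954 and 261 CPM in RW and 2477, 28051, 962, 2832 and 3271 CPM in aJ1aJ2. Apart from aJ1aJ2 replicate 2, which had 8.87% Tg, every library lay within a common range. Tnnt1, low in this set, was 0.946, 0.561, 2.32, 2.22 and 0.399 CPM in RW and 1.34, 2.95, 0.727, 1.42 and 4.65 CPM in aJ1aJ2.

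The log2 fold changes of aJ1aJ2 over RW in that set were 1.70 ± 1.06 for Acta1 (SE, n = 5 against 5, edgeR adjusted p = 0.530), 1.81 ± 1.15 for Myh4 (adjusted p = 0.535) and 0.83 ± 0.61 for Tnnt1 (adjusted p = 0.577). The other 7 lay between 0.39 (Myh7) and 2.07 (Myh2), with edgeR adjusted p from 0.472 to 0.885. All 10 genes were above 0, with a median of 1.66 against 0.0083 over the 16954 genes tested, but none was called by edgeR, DESeq2 or limma with quality weights, or at an unadjusted p under 0.05. Of all genes, 0% were called, 11.6% had an unadjusted p under 0.05 and 3.1% had groups that did not overlap. Without aJ1aJ2 replicate 2 the median fell to 0.093.

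The second 7-day set, low in Tg throughout, held both the least and nearly the most muscle RNA. Acta1 was 1169, 102, 1775, 29068 and 17718 CPM in aJ1aJ2 and 7889, 2320.1, 2884, 3585 and 1175 CPM in aN1aN2aN3. Myh4 was 321, 24.6, 812, 26599 and 4801 CPM in aJ1aJ2 and 3813, 1048, 1134, 1589.8 and 1995 CPM in aN1aN2aN3. The aJ1aJ2 libraries therefore lay both above and below the whole range of aN1aN2aN3. Tnnt1 was 1.57, 1.51, 23.5, 40.4 and 7.69 CPM in aJ1aJ2 and 5.42, 0.481, 2.12, 1.55 and 0.261 CPM in aN1aN2aN3, with 3 aJ1aJ2 libraries above the highest aN1aN2aN3 one.

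The log2 fold changes of aN1aN2aN3 over aJ1aJ2 were −1.88 ± 1.29 for Acta1 (SE, n = 5 against 5, edgeR adjusted p = 0.325), −2.26 ± 1.50 for Myh4 (adjusted p = 0.311) and −3.21 ± 1.19 for Tnnt1 (adjusted p = 0.0872). Of the other genes, 6 were tested and lay between −1.74 (Pvalb) and −0.72 (Myh2), with edgeR adjusted p from 0.372 to 0.792. With all libraries in, Tnnt1 was the only muscle gene with an unadjusted p under 0.05 in any comparison (0.0238), beside 35.6% of all genes here, and DESeq2 gave it an adjusted p of 0.0200. Limma with quality weights called Atp2a1 instead, with the opposite sign (2.85, adjusted p = 0.0494, against −1.59 with edgeR). All 9 genes tested were below 0, with a median of −1.64 against −0.067 over all 18450 genes. EdgeR called 19.6% of all genes in this set (9.19% higher and 10.4% lower) and none of these 9, and 13.5% of all genes had groups that did not overlap. Without aJ1aJ2 replicate 4 the median turned to 0.14. Myh7 was not tested here, being under the count minimum.

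**Figure D3:**
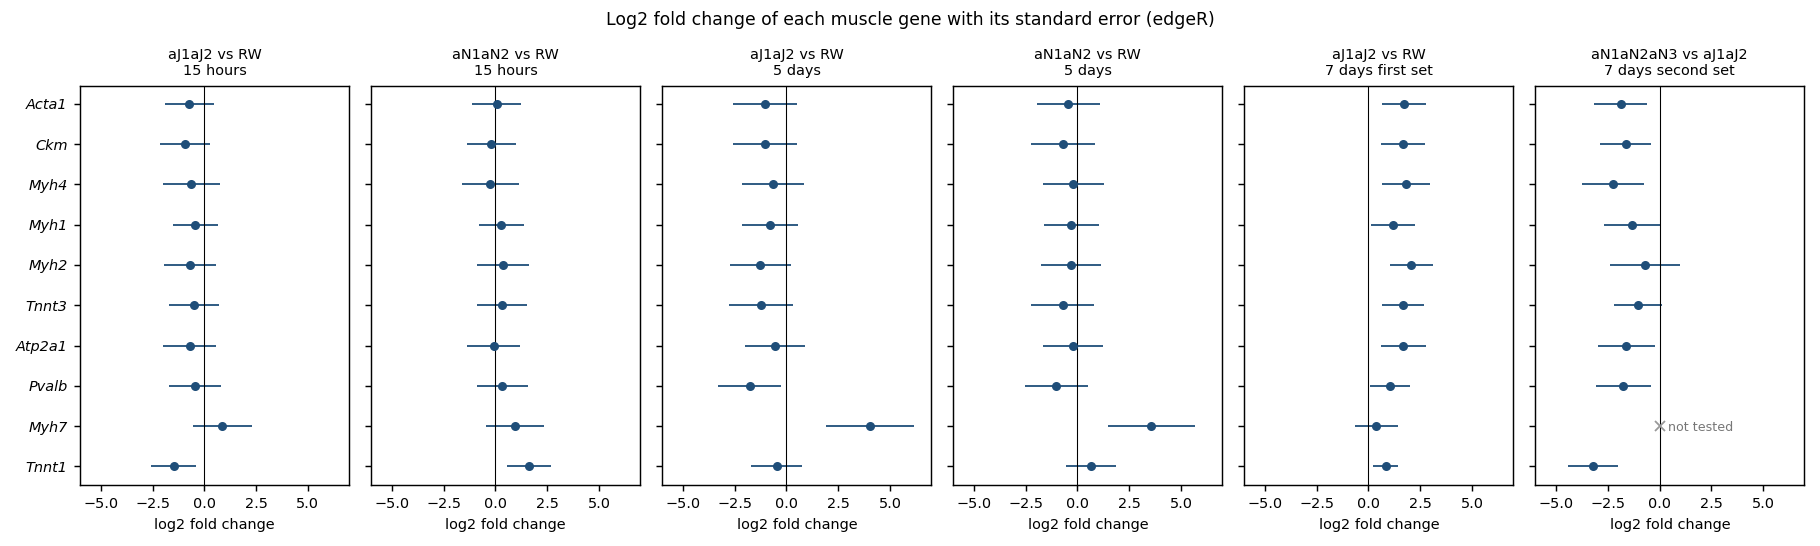
Log2 fold change of each muscle gene (points) with its standard error (bars) in the 6 comparisons, from edgeR with 5 libraries per group. The values lie on both sides of 0 over the comparisons, below it for all 9 genes in the second 7-day set and above it for all 10 in the first, and none of the genes passed the adjusted threshold of 0.05; the lowest adjusted p was 0.0872, for Tnnt1 in the second 7-day set.

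Wider lists of muscle genes behaved alike. Of 14 further fast-fibre genes, among them Mylpf (fast myosin light chain, up to 9181 CPM) and Tnnc2 (fast troponin C, up to 11570 CPM), edgeR called 0 higher and 0 lower in each comparison; the medians were −0.56 and 0.16 for aJ1aJ2 and aN1aN2 at 15 hours, −1.39 and −0.80 at 5 days, 1.36 in the first 7-day set and −1.84 in the second. Of 18 genes of all fibres, such as titin and desmin, it also called 0 in each, with medians of −0.64, 0.14, −1.13, −0.77, 1.52 and −1.87 in the same order. Of 7 to 10 slow-fibre genes tested it called 0 in each, with medians of 0.021, 0.44, −0.34, −0.073, 0.39 and −0.78. The lowest adjusted p of these lists was 0.0510, for a slow-fibre gene in the second 7-day set. The slow list is mixed: over 50 libraries its members had correlations with the muscle mean from −0.52, for Tpm3, to 0.98, for Mybpc1. Without RW replicate 3 at 5 days, the medians for aJ1aJ2 and aN1aN2 turned to 2.01 and 2.69 for the fast list. They turned to 2.02 and 2.47 for the genes of all fibres and to 1.27 and 0.65 for the slow list. EdgeR again called 0 of each, beside 1.05% and 0.0482% of all genes. Unadjusted edgeR p was under 0.05 for 7 of 14 fast, 5 of 18 all-fibre and 3 of 9 slow genes with aN1aN2. With aJ1aJ2 it was so for 2, 0 and 2 genes. The share of all genes was 16.5% with aN1aN2 and 16.1% with aJ1aJ2.

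The level of each muscle gene was set against the share of counts on Tg within each time and set, as 40 relations (10 genes in 4 sets), with 100000 permutations and Benjamini-Hochberg adjustment over the 40. At 15 hours (n = 15 libraries) the muscle genes were lower where Tg was higher. The Pearson correlation with Acta1 was −0.77 (two-sided permutation p = 0.00084, adjusted 0.00198) and Spearman's rho −0.72 (adjusted permutation p = 0.00940). The strongest were Pvalb (r = −0.84, adjusted permutation p = 0.000356), Tnnt1 (−0.83), Tnnt3 (−0.82) and Atp2a1 (−0.82). Myh1 (−0.81), Myh4 (−0.79), Ckm (−0.79) and Myh2 (−0.78) followed, and Myh7 did not pass (−0.36, adjusted permutation p = 0.287). In all, 9 of 10 passed by either measure.

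At 5 days (n = 15) the correlations were larger in size. Acta1 had r = −0.95 and rho = −0.88, and Myh1 (−0.95), Pvalb (−0.95), Ckm (−0.94), Tnnt3 (−0.94), Atp2a1 (−0.93), Myh4 (−0.91) and Myh2 (−0.90) were close to it, with an adjusted permutation p of 5e-05 that is the smallest the permutations could give after adjustment. Tnnt1 had r = −0.80 (adjusted permutation p = 0.00267). Myh7 passed with r (−0.65, adjusted permutation p = 0.0303) and not with rho (−0.50, adjusted permutation p = 0.127). The difference between the 2 times was not tested.

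Leaving out the 2 libraries with Tg shares farthest from the median gave r = −0.81 for Acta1 at 15 hours and −0.93 at 5 days, where the libraries left out were RW replicate 3 and aJ1aJ2 replicate 3. Without those 2, the 10 genes at 5 days had r from −0.93 to −0.69, and 10 passed with r and 9 with rho. At each time 4 libraries had a Tg share under 20%, well below the rest at 5 days, so the relation was also computed among the other 11, a choice made after seeing the data. There Acta1 had r = −0.75 at 15 hours (adjusted permutation p = 0.0114) and −0.78 at 5 days (adjusted permutation p = 0.00820). At each time 8 of 10 genes passed with r and 0 of 10 with rho, adjusted over the 20 relations of both times. Tnnt1 no longer passed (−0.41, adjusted permutation p = 0.231, and −0.46, adjusted permutation p = 0.130), and Myh7 had r = −0.024 and 0.13. Among the 10 RW and aJ1aJ2 libraries at 15 hours, which share 1 FPKM scaling, Acta1 had r = −0.76 (adjusted permutation p = 0.0122). Of 10 genes, 9 passed with r and 0 with rho, adjusted over these 10 relations only. This subset too was chosen after seeing the data.

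Both 7-day sets lacked such a relation at the threshold. In the first set (n = 10) r ran from −0.61 for Pvalb to 0.17 for Myh7, and in the second (n = 10) from −0.57 for Tnnt1 to 0.20 for Myh1, with 0 of 10 passing by r or rho in each, and 0 with an unadjusted permutation p under 0.05. Acta1 had r = −0.56 in the first set and 0.072 in the second. In the second set Tg was under 7% in every library while Acta1 spanned 102 to 29068 CPM, so low Tg there went with both little and much muscle RNA. With r, 19 of 40 relations passed, as many as with muscle CPM computed over counts other than Tg and with values centred within groups, which take out the reads that Tg itself holds and the group means.

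**Figure D4:**
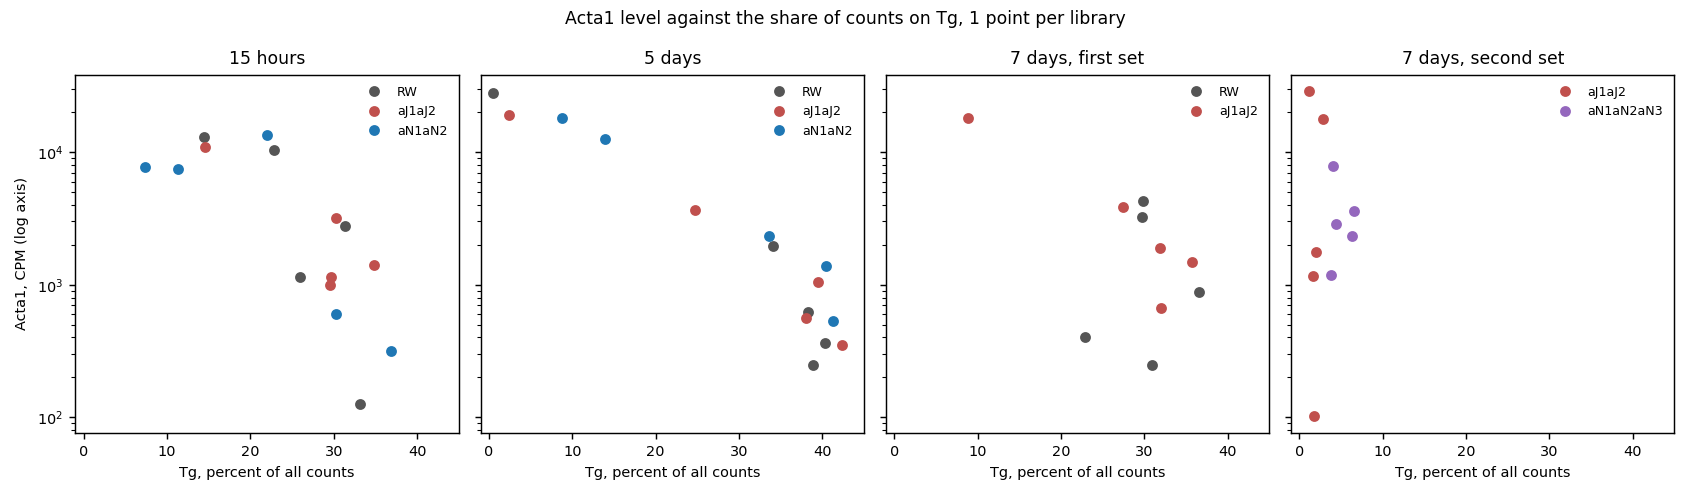
Acta1 in CPM (log axis) against Tg as percent of all counts, 1 point per library, in the 4 sets of 15, 15, 10 and 10 libraries. Acta1 falls as Tg rises at 15 hours (r = −0.77) and 5 days (r = −0.95), while the second 7-day set lies in a column at 1.15% to 6.50% Tg.

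The ratio of actin to type IIb myosin set the second 7-day set apart. Within a library, the FPKM ratio of Acta1 to Myh4 was 4.90 to 17.3 in RW, 4.00 to 11.4 in aJ1aJ2 and 5.17 to 10.3 in aN1aN2 at 15 hours. It was 4.01 to 7.24, 3.94 to 6.62 and 3.87 to 7.17 in the same order at 5 days, and 4.99 to 11.5 in RW and 4.51 to 8.82 in aJ1aJ2 in the first 7-day set. In the second set the aJ1aJ2 libraries had 27.3, 31.1, 16.4, 8.21 and 27.7, and the aN1aN2aN3 libraries 15.5, 16.6, 19.1, 16.9 and 4.42. Thus 8 of these 10 libraries lay above 15, as did only RW replicates 1 (17.3) and 3 (16.8) at 15 hours among the other 40. The shift was not limited to actin. The FPKM ratio of Ckm to Myh4 was 0.987 to 5.19 in aJ1aJ2 and 0.608 to 2.53 in aN1aN2aN3 of this set. That of Tnnt3 to Myh4 was 0.699 to 3.82 and 0.556 to 3.34. In the other 40 libraries these ratios were at most 1.81 and 1.56. The 2 sets of aJ1aJ2 at 7 days had the same antibodies, dose and day, and their difference was not tested. The other libraries of the second set were aJ1aJ2 replicate 4, with the most muscle RNA of the set, at 8.21 and aN1aN2aN3 replicate 5 at 4.42. The latter also had little Myh2 (0.887 CPM from 17 counts, beside 1995 CPM of Myh4), as did aN1aN2aN3 replicate 4 (2.57 CPM from 58 counts, beside 1589.8 CPM).

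**Figure D5:**
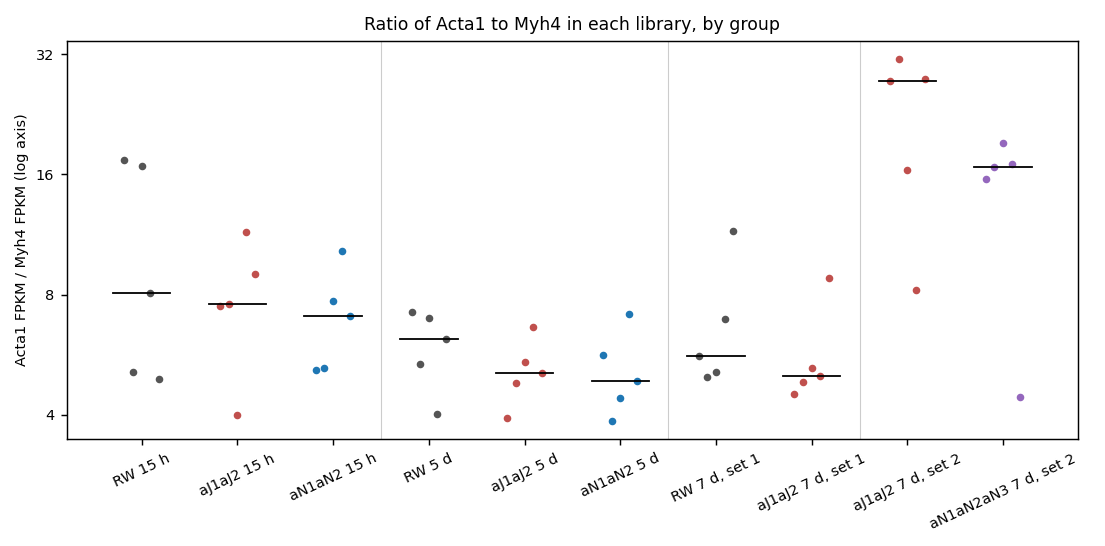
Ratio of Acta1 FPKM to Myh4 FPKM (log axis) in each library, 1 point per library, by group of 5. Most libraries lie between 3.87 and 11.5, while 8 of the 10 libraries of the second 7-day set lie above 15, up to 31.1.

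Markers of neighbouring tissues were read in the same libraries. Of 5 genes listed for muscle stem cells and myogenic regulation, 3 had enough counts (Myod1, Myog and Myf6) and followed the muscle mean (r 0.87 to 0.96). The stem cell genes Pax7 and Myf5 were too low for r, with medians of 0.083 and 0.081 CPM. Markers of the nerve-muscle synapse (3 of 4, r 0.84 to 0.91) also followed the muscle genes. The summed levels of both lists were low, 0.5 to 161 CPM (Myf6 alone up to 124 CPM) and 1.3 to 83.0 CPM. Adipocyte markers (r −0.067 to 0.13), squamous epithelium (0.036 to 0.15) and airway markers (0.086 to 0.29) showed little relation to the muscle mean, and cartilage markers ranged from 0.00099 to 0.50. Smooth muscle genes split: desmin, which skeletal fibres also make, had r = 0.95, and the other 4 had 0.019 to 0.40. These are descriptions over the same 50 libraries.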

How the data were processed

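Per the labels' protocols, Trizol and column purification gave total RNA, read on an Illumina HiSeq as 50-base single ends. GSNAP and limma are named in the submitters' processing notes. The authors provided, as deposited tables, raw read counts per gene and FPKM values, which are scaled to gene length and depth. Count divided by FPKM fell into 2 scalings of 30 and 20 libraries, so FPKM levels were compared within each scaling only and FPKM ratios within a library. Groups, sets and replicate numbers came from the sample titles, the 2 sets at 7 days from their separate ID series. Every count column matched 1 library, and 0 were without a sample. The counting program, genome build, annotation and strand setting were not given in the sources used here.

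CPM was computed on the total count (15.3 to 52.8 M). Counts were tested with edgeR 4.0.16 in R 4.3.3 (TMM, filterByExpr with minimum count 10 and minimum total 15, robust quasi-likelihood fit, two-sided), fitting the groups of 1 time or set together, with Benjamini-Hochberg adjustment and a threshold of 0.05. The scripts were tested on simulated data. Levels were set against Tg with log2(CPM + 0.5) and 100000 permutations (scipy 1.17.1). Likeness to the muscle genes was Pearson's r with their mean log2 CPM, over genes with a mean of at least 1 CPM; the 10 highest and 5 lowest were named. All 10 genes were named in every comparison, Acta1, Myh4 and Tnnt1 by single fold changes and the other 7 by their range; genes of wider lists were to be named where they passed the threshold. Symbols were matched by Ensembl ID to GENCODE M21, and 233 IDs had none. Alternatives were another scaling, no filter, a replicate block, Tg left out, DESeq2 1.42.0, limma 3.58.1 with quality weights, the 2 groups alone, and each library left out. The muscle genes and the gene lists were chosen with earlier results of these data known.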

Additional observations from a re-analysis of the deposited data

Results flagged for a closer look

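Within groups of 5 libraries, a value was singled out where its gap to the nearest other library exceeded 0.71 of the group's whole range, on the log2 scale for levels. By chance about 1 in 20 groups would be singled out; here 3 of 100 gene groups and 5 of 30 groups of shares and ratios were. On the CPM scale, 44 of the 100 gene groups were.

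In aJ1aJ2 at 15 hours, replicate 3 was far above the others in Myh1 (3929 CPM, with the nearest other library at 682 CPM) and in Myh4 (20434 CPM, nearest 2102 CPM), and its Tg share was far below them (14.5%, nearest 29.5%). In RW at 5 days, replicate 3 had a Tg share of 0.450%, with the nearest other library at 34.0%. In aJ1aJ2 at 5 days, replicate 3 had 40.4 CPM of the slow myosin Myh7, with the nearest other library at 0.712 CPM.

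The Myh4 share or the ratio of Acta1 to Myh4 stood out in 3 libraries. In aN1aN2 at 15 hours, replicate 4 had a Myh4 share of 64.3% of the 4 myosins, below the nearest other library at 74.6%. The FPKM ratio of Acta1 to Myh4 was 8.82 in aJ1aJ2 replicate 5 of the first 7-day set, with the nearest other library at 5.25. In aN1aN2aN3 of the second set, replicate 5 had a ratio of 4.42, with the nearest other library at 15.5.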

How the results depend on the processing

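No muscle gene passed the edgeR threshold in any of the 80 fits that left out 1 library, and of the 40 other fits only 2 called one, 1 with DESeq2 (Tnnt1) and 1 with limma quality weights (Atp2a1), both in the second 7-day set. Directions were less stable. With the replicate block, Acta1 and Myh4 turned to 0.058 and 0.58 for aJ1aJ2 at 15 hours, to 1.91 and 1.80 for aN1aN2 at 5 days and to 0.31 and 0.80 in the second 7-day set, and Acta1 to −0.23 for aN1aN2 at 15 hours; the block called 0 of the genes. Equal replicate numbers did not pair the libraries, since the correlations of their deviations ran from −0.66 to 0.78. In each comparison 0 to 2 of the samples were closest to the one with their own number.

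With quality weights, Acta1 and Myh4 turned to 0.18 and 0.66 for aJ1aJ2 at 15 hours, to 0.50 and 0.67 for aJ1aJ2 and 1.70 and 2.09 for aN1aN2 at 5 days, and to 1.92 and 2.72 in the second 7-day set, and Myh4 to 1.53 for aN1aN2 at 15 hours. Leaving out 1 library gave −2.56 to 0.24 for Myh4 with aJ1aJ2 at 15 hours, −0.57 to 0.75 for Acta1 and −0.74 to 0.62 for Myh4 with aN1aN2 at 15 hours. At 5 days it gave −2.89 to 2.50 (Acta1), −2.27 to 2.35 (Myh4) and −2.46 to 0.32 (Tnnt1) with aJ1aJ2, and −1.37 to 3.12, −1.20 to 2.79 and −0.30 to 1.43 with aN1aN2. At 7 days it gave −0.041 to 2.54 for Myh4 in the first set and −2.71 to 0.23 in the second. The causes of these turns were not tested. Another scaling, no filter, Tg left out, DESeq2 and the 2 groups alone turned no direction of Acta1, Myh4 or Tnnt1. Over the whole table, edgeR called 106, 311, 33, 0, 0 and 3614 genes in the 6 comparisons in the order of the report. DESeq2 called 317, 941, 484, 491, 479 and 4946, quality weights 176, 509, 3476, 1523, 595 and 8248, and the replicate block 36, 186, 1, 0, 0 and 2100.

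Of the relations with Tg, 19 of 40 passed with r under each alternative run on all 40. With rho 18 passed, and 17 without the 2 libraries farthest from the median Tg share. Centring within groups turned r in the second 7-day set from 0.090 to −0.10 for Myh4, from 0.085 to −0.068 for Tnnt3 and from 0.17 to −0.025 for Atp2a1, and leaving out those 2 libraries turned it from −0.11 to 0.10 for Myh2. The median Myh4 share was 74.1% with counts in place of FPKM. Depth limited Myh7 and Tnnt1, which had medians of 13.5 and 44.5 counts. The other genes had medians of 2831 counts or more. In aJ1aJ2 replicate 2 of the second 7-day set, however, Myh2 had 8 counts and Myh1 34.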

Other observations

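Myosins of special muscles were found in single libraries, chosen here after their values were seen. Myh8, the perinatal myosin, was 1849 CPM in aJ1aJ2 replicate 5 of the second 7-day set, 927 CPM in RW replicate 3 at 15 hours and 462 CPM in aN1aN2aN3 replicate 4 of the second set. These 3 libraries also had the lowest FPKM ratios of Pvalb to Acta1 of all 50, at 0.0107, 0.0148 and 0.0109, where the median was 0.0497. Their ratios of Acta1 to Myh4 were 27.7, 16.8 and 16.9. Actc1, the cardiac actin that immature and some special fibres also make, was 219 CPM, 272 CPM and 81.9 CPM in them, beside a median of 4.52 CPM. The RW 5-day library with the most Myh4 of all (30198 CPM) had Myh8 at 5.73 CPM.

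Myh13, the superfast myosin of eye and larynx muscles, was 237 CPM in aN1aN2 replicate 2 and 179 CPM in replicate 5 at 15 hours, and 199 CPM in aN1aN2 replicate 1 at 5 days, and at most 8.66 CPM in the other 47 libraries. The same 3 libraries had the highest levels of the cartilage gene Acan (595, 928 and 505 CPM) and 3 of the 4 highest levels of Actc1 (503, 391 and 249 CPM). Their Tnnt1 levels were 22.6, 60.3 and 16.8 CPM. The first of them also had the squamous keratins Krt4 at 2939 CPM and Krt13 at 3329 CPM, and the second the airway secretory gene Bpifa1 at 7484 CPM. The part of these tissues in the muscle levels was not tested.

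Myogenic regulators were present at low levels where muscle RNA was high. Myod1, which drives muscle differentiation, reached 29.1 CPM in aJ1aJ2 replicate 4 of the second 7-day set and 25.1 CPM in RW replicate 3 at 5 days. Pax7, the muscle stem cell factor, did not exceed 3.41 CPM and had no read in 14 libraries. Chrng, the fetal subunit of the muscle acetylcholine receptor, did not exceed 0.45 CPM. Musk, a kinase of the nerve-muscle synapse, reached 44.5 CPM in aJ1aJ2 replicate 2 of the first 7-day set.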
